A study of Mus musculus with 12 samples.

Results

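The 7 mouse neuroendocrine thyroid carcinomas with the genotype label Rb1/Trp53 were divided by their Ucp1 level: 4 tumours had more than 20 CPM of Ucp1 (its reads scaled by the gene counts of the library) and 3 had 20 CPM or less. They are 7 of the 12 tumours of the series. The other 5 carry the genotype label Rb1/Trp53/Crebbp, and their values stand beside the others as a reference that the division did not use. The series asked which genes depend on Crebbp in primary thyroid tumours of a genetically engineered mouse. All 12 tumours share the Rb1/Trp53 part of the genotype, and the 5 differ from the 7 by the added Crebbp. The labels name no Cre driver, promoter, strain, age or treatment, and nothing in them ties each tumour to a mouse of its own. The p-values then reflect only the spread among these tumours, which may be technical. The groups were chosen by measured Ucp1, so Ucp1-high and Ucp1-low are not groups of the study. Tumours are named RP1 to RP7 and RPC1 to RPC5 by the number in their labels. RP2, RP4, RP6 and RP7 were Ucp1-high, and RP1, RP3 and RP5 were Ucp1-low. Values below follow those orders.

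Brown adipocytes burn fatty acids for heat. Ucp1, a carrier of the inner mitochondrial membrane, lets protons bypass ATP synthase, and noradrenaline acting on the beta-3 adrenergic receptor starts both lipolysis and Ucp1 transcription. White adipocytes share the lipid droplet coat, the lipases and many hormones with brown adipocytes but use little Ucp1, and they are the main source of leptin. In the mouse neck, brown fat depots, striated muscle, trachea and parathyroid glands lie close to the thyroid. In a bulk sample, fewer cells of a type and less RNA per cell cannot be told apart.

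The 250 bases before the start of Ucp1, the gene that made the division, are shown first, with those of Plin1 and Adipoq, fat genes whose levels stood apart in the same tumours. The sequences come from RefSeq on build GRCm38.p6, whereas the reads were aligned to mm9 per the submitters' processing notes. The Ucp1 stretch is chr8:83290098-83290347 on the plus strand, the Plin1 stretch chr7:79732777-79733026 on the minus strand, and the Adipoq stretch chr16:23146286-23146535 on the plus strand. Capitals mark matches to TGACG, the core of the cyclic AMP response element, and AGGTCA, the half-site of nuclear receptors. TATAAA, the TATA box, was also searched for. All were searched on both strands.
Ucp1: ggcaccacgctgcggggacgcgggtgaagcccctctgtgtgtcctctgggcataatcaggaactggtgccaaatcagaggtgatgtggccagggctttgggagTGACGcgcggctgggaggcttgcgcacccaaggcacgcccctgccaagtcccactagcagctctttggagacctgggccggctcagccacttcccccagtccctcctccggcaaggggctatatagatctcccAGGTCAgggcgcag
Plin1: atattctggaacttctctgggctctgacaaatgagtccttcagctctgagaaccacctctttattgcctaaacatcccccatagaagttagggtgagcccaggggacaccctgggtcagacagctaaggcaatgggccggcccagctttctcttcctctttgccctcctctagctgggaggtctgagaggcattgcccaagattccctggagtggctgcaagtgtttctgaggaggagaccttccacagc
Adipoq: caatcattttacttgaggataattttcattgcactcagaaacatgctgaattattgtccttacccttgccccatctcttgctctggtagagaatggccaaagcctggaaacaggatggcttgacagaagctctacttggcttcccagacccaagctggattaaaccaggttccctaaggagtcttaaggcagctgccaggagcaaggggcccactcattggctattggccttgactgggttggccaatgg
The Ucp1 stretch held TGACG at position -147 and AGGTCA at position -14, counted from the start site, and no TATAAA. The Plin1 and Adipoq stretches held none of the 3 motifs. Of 32851 promoters of the same length, 17.8% held TGACG, 14.0% held AGGTCA and 12.4% held TATAAA. A match is a string of letters and shows no binding.

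The 7 libraries held 9.11 to 57.3 M gene counts, and RP5, a Ucp1-low tumour, was the deepest. A floor of 3 counts corresponded to 0.0501 to 0.311 CPM, which covers counting error alone. No pair of libraries agreed within counting noise. Calca, the calcitonin gene of the thyroid C cell, and Chga, the chromogranin of neuroendocrine granules, were abundant in all 7, at no less than 80357 and 3907 CPM. Both are markers that a neuroendocrine tumour of the thyroid should have, and Chga was chosen after its values were seen.

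Ucp1 itself divided the tumours with a gap. In the unscaled CPM of the rule it stood at 129, 129, 138 and 48.4 CPM in RP2, RP4, RP6 and RP7 and at 0.749, 0.549 and 9.40 CPM in RP1, RP3 and RP5. RP7 was thus the tumour just above the limit of 20 CPM and RP5 the one just below it. All later CPM values are scaled by TMM, edgeR's correction for the share of a library taken by a few genes, on which Ucp1 reached 144, 141, 156 and 54.7 CPM against 0.772, 0.519 and 8.997 CPM. In the Rb1/Trp53/Crebbp tumours it lay between 0.871 and 6.07 CPM, below the limit in all 5. These values chose the tumours and were not tested.

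Of the other 3 genes that mark fat, Plin1 and Adipoq stood apart between the groups and Cidea did not. Plin1, perilipin of the lipid droplet coat, measured 26.95, 22.1, 35.1 and 11.2 CPM in the Ucp1-high tumours and 1.82, 2.08 and 1.57 CPM in the Ucp1-low ones, a log2 fold change of 3.73 (SE 0.42). Adipoq, the hormone adiponectin, measured 118, 60.4, 119.8 and 41.5 CPM against 3.72, 5.09 and 13.3 CPM, a log2 fold change of 3.47 (SE 0.58). For both genes the lowest Ucp1-high tumour was RP7, and it still lay above every Ucp1-low tumour. Cidea, a lipid droplet protein that is abundant in brown fat, measured 35.9, 40.2, 54.01 and 20.8 CPM against 6.73, 34.99 and 11.6 CPM. RP3, which had the least Ucp1 of the 7, had nearly as much Cidea as RP2 and more than RP7, so the groups overlapped. Because Cidea, Prdm16, Ppargc1a and Ebf2 overlapped, and hormones of white fat were higher too, the tumours are called by their Ucp1 level and not by a type of fat.

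**Figure D1:**
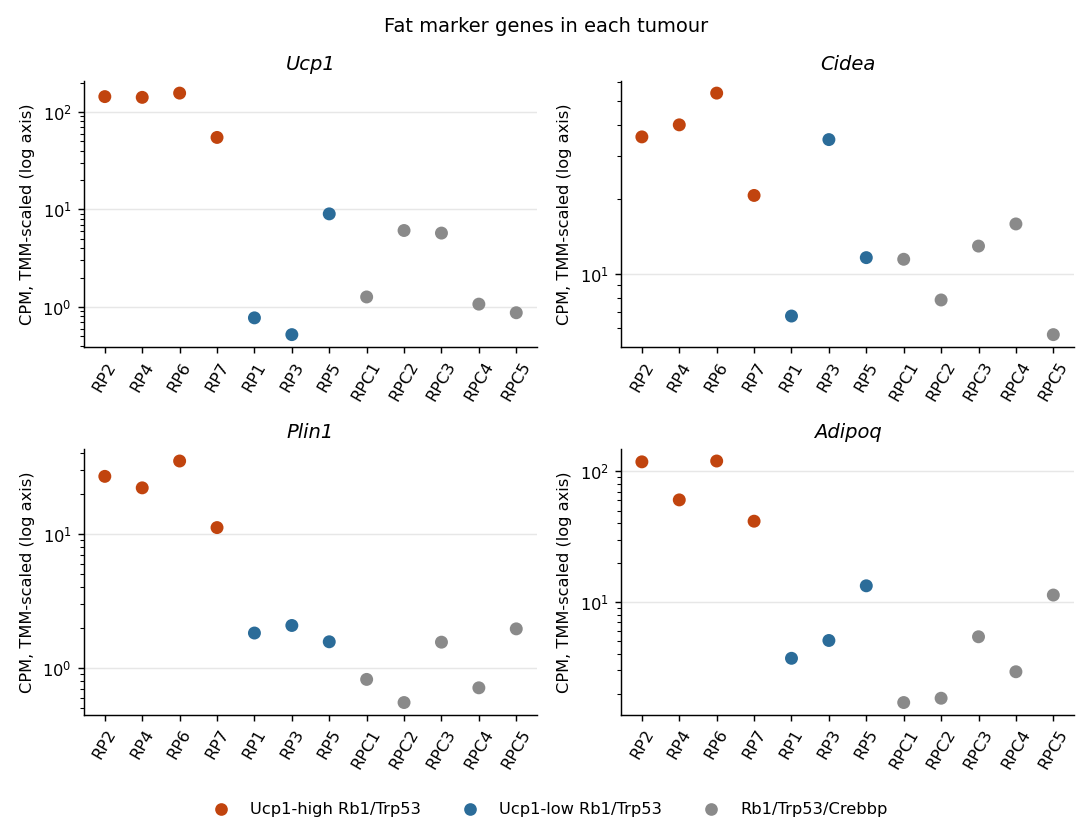
Ucp1, Cidea, Plin1 and Adipoq in each of the 12 tumours, in TMM-scaled CPM on log axes, 1 point per tumour, coloured by Ucp1-high Rb1/Trp53, Ucp1-low Rb1/Trp53 and Rb1/Trp53/Crebbp. Ucp1, Plin1 and Adipoq are higher in every Ucp1-high tumour than in any other tumour, whereas Cidea in RP3 (34.99 CPM) lies among the Ucp1-high values.

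The fat genes, 103 in all, fall into 6 lists, on thermogenesis and brown identity, adipokines, the lipid droplet, fatty acid uptake and lipid synthesis, adipogenic transcription factors and adrenergic signalling. Of these, 100 had enough counts to be fitted, and Zic1, Adrb1 and Adcy10 did not. The CPM of the groups did not overlap, with the Ucp1-high tumours above, for 50 of the 100, and with them below for 1. Among all 15024 genes fitted, 10.4% stood apart upward and 8.25% downward. The fitted log2 fold change was above 0 for 88 of the 100 and for 47.5% of all genes. Since Ucp1 made the groups and these genes belong to the same cell type, nothing is read from that excess, and no p is given for a fat gene. The amount differed among the Ucp1-high tumours too. RP6 was the highest of the 4 for 78 of the 100 genes and RP7 the lowest for 62. Of the 50 genes that stood apart, 35 were also lower in all 5 Rb1/Trp53/Crebbp tumours than in any Ucp1-high tumour. The 50 were picked for high values in the Ucp1-high tumours, and the share among all genes was not counted. Nothing is therefore read from the 35.

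**Figure D2:**
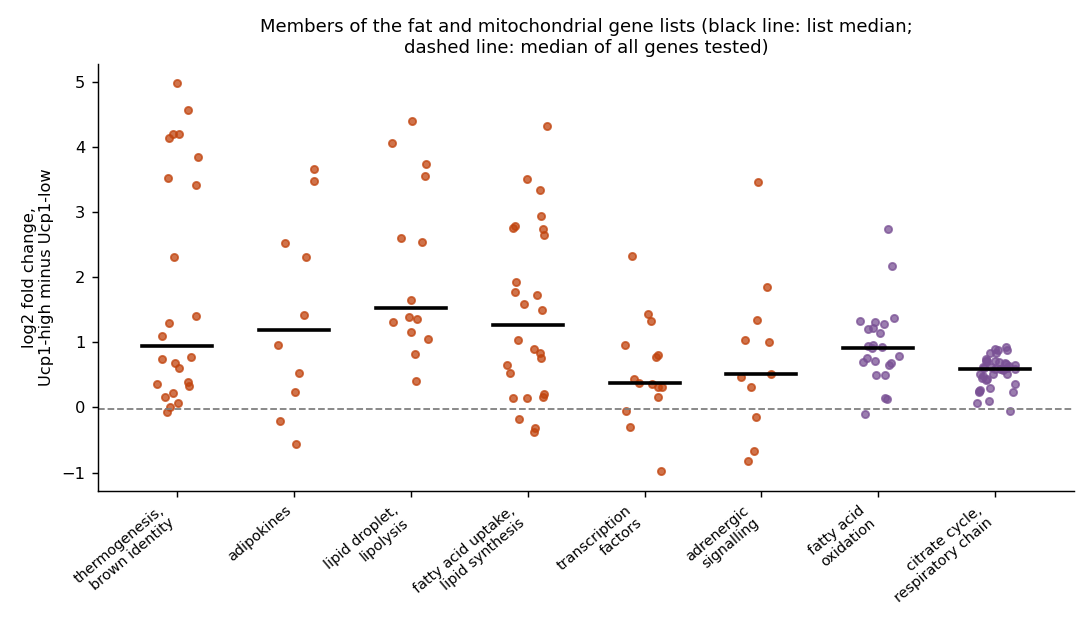
Fitted log2 fold changes (Ucp1-high minus Ucp1-low) of the members of the 6 fat lists and of 2 mitochondrial lists, 1 point per gene, with the list median as a black line and the median of all genes tested as a dashed line at -0.024. The medians run from 0.37 for transcription factors to 1.52 for the lipid droplet list.

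Of 24 thermogenesis and brown identity genes fitted, 10 stood apart upward and none downward, and the median log2 fold change was 0.94, or 0.62 without RP1. Cox8b, a cytochrome oxidase subunit of brown fat and striated muscle, measured 61.1, 66.7, 97.3 and 22.4 CPM against 1.89, 0.934 and 6.66 CPM. Cox7a1, the partner subunit of the same tissues, measured 21.7, 20.6, 36.3 and 7.64 CPM against 1.54, 1.45 and 2.82 CPM. Both followed Ucp1, with RP7 the lowest of the Ucp1-high tumours. Elovl3, the elongase of very long fatty acids in active brown fat, measured 2.66, 7.03, 15.4 and 3.28 CPM against 0.281, 0 and 0.634 CPM. Otop1, a proton channel found in brown fat, measured 5.72, 5.88, 7.68 and 3.85 CPM against 0.2104, 0.208 and 0.417 CPM, a log2 fold change of 4.20 (SE 0.43). Neither gene reached 1 CPM in any Ucp1-low or Rb1/Trp53/Crebbp tumour. Slc27a2, a fatty acid transporter and acyl-CoA synthetase, stood at 1.33, 2.02, 1.54 and 1.26 CPM against 0.1403, 0.104 and 0.134 CPM. Otop1 and Slc27a2 lay at or below the floor of 3 counts in RP1 and RP3.

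A further 3 members of that list are shared with striated muscle and were highest in RP6, where muscle genes were also highest. Fabp3, the fatty acid binding protein of heart and muscle, measured 22.5, 19.99, 45.8 and 9.72 CPM against 1.12, 1.56 and 0.668 CPM. Ucp3, the uncoupling protein homologue of muscle, measured 1.57, 3.28, 14.3 and 1.26 CPM against 0.351, 0.208 and 0.417 CPM. Cpt1b, the muscle form of the carnitine acyltransferase that admits fatty acids to the mitochondrion, measured 0.783, 0.749, 2.34 and 0.631 CPM against 0.0701, 0.311 and 0.267 CPM. Its RP1 and RP3 values lay at or below the floor of 3 counts. RPC5, the other tumour rich in muscle genes, had 27.4 CPM of Fabp3 and 6.46 CPM of Ucp3 with only 0.871 CPM of Ucp1. The summed muscle markers were 174, 294 and 279 CPM in RP2, RP4 and RP7 and 99.8 to 948 CPM in the Ucp1-low tumours. In RP2, RP4 and RP7 all 3 genes were above every Ucp1-low tumour. The groups were made by Ucp1, and the part of muscle RNA in these genes was not tested.

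Other members of the list overlapped between the groups. Prdm16, a determinant of brown adipocyte identity, measured 8.85, 17.7, 14.96 and 17.8 CPM against 11.99, 14.5 and 7.78 CPM, a log2 fold change of 0.38 (SE 0.31). Ppargc1a, the coactivator of mitochondrial biogenesis, measured 7.29, 5.53, 15.8 and 5.997 CPM against 4.35, 9.66 and 9.16 CPM. Dio2, which makes active thyroid hormone within brown fat, measured 4.47, 14.5, 20.8 and 3.91 CPM against 2.31, 3.11 and 13.2 CPM. In each case at least 1 Ucp1-low tumour lay above at least 1 Ucp1-high tumour. Ebf2, a transcription factor of brown preadipocytes, measured 1.65, 2.07, 0.9702 and 0.821 CPM against 0.912, 1.45 and 1.202 CPM. Kcnk3, a potassium channel used as a brown fat marker, stood at 412 to 572 CPM over the 7 tumours with a log2 fold change of 0.012 (SE 0.17). Bmp8b, a growth factor of brown fat, was highest in a tumour with little Ucp1, RPC2, at 16.5 CPM. Gyk, the glycerol kinase that lets brown fat reuse glycerol, stood apart narrowly at 11.9, 13.5, 15.8 and 11.9 CPM against 7.72, 7.27 and 10.95 CPM. Letmd1, a mitochondrial protein needed for thermogenesis, overlapped with a log2 fold change of 0.32 (SE 0.14), as did Ppargc1b, the paralogue of Ppargc1a, with -0.071 (SE 0.60). Ucp2, the widely expressed homologue of Ucp1 and chosen after its values were seen, measured 649, 761, 856 and 662 CPM against 569.9, 817 and 576 CPM and overlapped.

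Adipokines of white fat were higher in the same tumours. Of 10 members, 5 stood apart upward, and the median log2 fold change was 1.18. Lep, the hormone leptin, measured 14.3, 4.61, 6.87 and 3.91 CPM against 0.982, 1.04 and 0.0334 CPM, and RP2 had the most. Cfd, the complement protease adipsin of fat cells, measured 179, 155, 338 and 76.8 CPM against 11.9, 17.7 and 67.6 CPM. Retn, resistin, measured 19.98, 21.03, 38.3 and 8.27 CPM against 1.26, 1.45 and 9.75 CPM, and RP5 lay above RP7. The Ucp1-low tumour RP5 thus held intermediate amounts of Cfd and Retn and almost no Lep. Nrg4, a secreted ligand enriched in brown fat, measured 5.09, 3.92, 5.82 and 2.46 CPM against 2.104, 2.39 and 2.203 CPM. Angptl4, an inhibitor of lipoprotein lipase that fasting induces, measured 21.9, 37.2, 48.99 and 20.96 CPM against 4.28, 23.9 and 8.63 CPM, and RP3 lay above RP2 and RP7. Rbp4, the retinol carrier, overlapped at 146, 77.4, 147 and 112 CPM against 81.2, 44.5 and 126 CPM. Fgf21, under 1 CPM on average in the Ucp1-high tumours and chosen after its values were seen, and Apln, hormones with several sources, had log2 fold changes of -0.20 (SE 0.49) and -0.56 (SE 0.25), and both overlapped between the groups.

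The proportion of Ucp1 to Adipoq counts within a library also differed among tumours. Ucp1 counts per Adipoq count were 1.22, 2.33, 1.30 and 1.32 in the Ucp1-high tumours and 0.208, 0.102 and 0.675 in the Ucp1-low ones. The ratio compares tumours, since the 2 transcripts differ in length. RP4 had the highest ratio and RP3 the lowest, and the groups did not overlap, as is given in part by dividing on Ucp1. Lep counts per Adipoq count were 0.121, 0.0763, 0.0574 and 0.0942 against 0.264, 0.204 and 0.00251, a ratio that Ucp1-low tumours had both highest and lowest.

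The lipid droplet and lipolysis list had the largest median of the 6, 1.52, with 11 of 14 members standing apart upward and all 14 above 0. Cidec, which fuses droplets in white fat, measured 123, 88.3, 192 and 54.7 CPM against 4.91, 5.503 and 5.79 CPM, a log2 fold change of 4.40 (SE 0.45). Plin5, the perilipin that ties droplets to mitochondria, measured 13.9, 13.1, 30.6 and 7.32 CPM against 1.54, 1.04 and 1.502 CPM. Plin2, the droplet coat protein of most cell types, overlapped at 69.3, 111, 171 and 54.1 CPM against 32.5, 109 and 30.6 CPM, and RP3 was high for it as for Cidea. The lipases, by contrast, were well above 0 in every tumour. Pnpla2, the adipose triglyceride lipase, measured 173, 179, 251 and 114 CPM against 77.7, 97.4 and 66.9 CPM. Lipe, the hormone-sensitive lipase that acts after it, measured 63.5, 57.9, 91.7 and 46.7 CPM against 26.2, 31.7 and 20.7 CPM. Mgll, which completes triglyceride breakdown, differed by a log2 fold change of 1.36 (SE 0.26), and here RP7 was the highest tumour, at 102 CPM. The lipases thus stood apart by less than Cidec or Plin1. Abhd5, the activator of Pnpla2, was the member nearest to 0 and overlapped, with a log2 fold change of 0.41 (SE 0.16). Aqp7, the glycerol channel of fat cells, measured 5.41, 3.51, 5.498 and 2.97 CPM against 0.2104, 0.208 and 0.3005 CPM, at or below the floor of 3 counts in RP1 and RP3. G0s2, an inhibitor of Pnpla2, was also higher, with a log2 fold change of 1.39 (SE 0.27). Plin4, another perilipin, measured 20.1, 17.5, 52.2 and 14.5 CPM against 5.61, 4.15 and 3.26 CPM, and Tusc5, a regulator of glucose transporter traffic in fat cells, 17.1, 10.9, 16.98 and 8.46 CPM against 2.81, 2.6996 and 1.55 CPM. RPC5, rich in muscle RNA, had 20.2 CPM of Plin4, more than RP2, RP4 and RP7, whereas Tusc5 stayed under 2.81 CPM in all 5 Rb1/Trp53/Crebbp tumours.

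In the list of fatty acid uptake and lipid synthesis, 15 of 26 members stood apart upward and none downward, with a median log2 fold change of 1.26. Fabp4, the fatty acid binding protein of adipocytes, measured 589.5, 511, 938 and 295 CPM against 34.8, 47.6 and 71.5 CPM. Pck1, which supplies glycerol phosphate in fat, measured 109, 78.9, 148 and 58.6 CPM against 2.595, 5.92 and 6.09 CPM, a log2 fold change of 4.32 (SE 0.44). Car3, a carbonic anhydrase abundant in fat and muscle, measured 310.2, 259.9, 507 and 148 CPM against 29.5, 16.3 and 44.5 CPM. All 3 were lowest in RP7 among the Ucp1-high tumours and highest in RP6. Mrap, an accessory protein of the melanocortin receptor that fat cells express, measured 9.401, 9.51, 20.3 and 5.24 CPM against 0.912, 1.35 and 1.95 CPM. Slc2a4, the insulin-responsive glucose transporter of fat and muscle, measured 10.3, 10.5, 45.2 and 5.55 CPM against 4.07, 1.97 and 2.504 CPM, and RPC5 had 20.7 CPM. Mrap was thus low in every other tumour, and Slc2a4 was also high where muscle RNA was. Gpd1, which makes glycerol phosphate, measured 123, 144, 257 and 116 CPM against 47.5, 66.8 and 32.1 CPM, and Agpat2, an acyltransferase of triglyceride assembly, 19.9, 27.3, 43.8 and 13.2 CPM against 7.15, 7.99 and 7.795 CPM. Gpam, the mitochondrial acyltransferase of the first step, and Lpin1, the phosphatase of the next to last, overlapped with log2 fold changes of -0.37 (SE 0.44) and -0.17 (SE 0.34). Dgat2, which adds the last acyl chain to triglyceride, differed by 2.74 (SE 0.33) on the log2 scale. Cd36, a fatty acid translocase, differed by 2.78 (SE 0.38), and Lpl, the lipase that releases fatty acids from lipoproteins, by 1.92 (SE 0.46).

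Fasn, fatty acid synthase, measured 217, 342, 788 and 232 CPM against 276, 244 and 236 CPM and overlapped, and only RP6 stood out. Acly, which makes cytosolic acetyl-CoA, measured 254, 312, 463 and 498 CPM against 617, 451 and 366 CPM and was highest in the Ucp1-low tumour RP1. Acaca, the carboxylase that feeds Fasn, overlapped as well, with a log2 fold change of 0.15 (SE 0.33). Scd1, the desaturase of stearate, measured 453, 817, 1885 and 257 CPM against 117, 53.7 and 211 CPM and stood apart. Thrsp, a lipogenic protein that thyroid hormone induces, did so too, at 192, 187, 333 and 152 CPM against 86.1, 52.02 and 78.2 CPM, although a Rb1/Trp53/Crebbp tumour reached 195 CPM. Elovl6, the elongase of palmitate, overlapped with a log2 fold change of 0.21 (SE 0.34).

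The transcription factors of adipogenesis differed less than the genes of the lipid droplet. Of 15 members 4 stood apart upward, and the median log2 fold change was 0.37. Pparg, the central regulator of fat cell differentiation, measured 12.7, 15.6, 21.99 and 6.88 CPM against 4.63, 16.1 and 4.29 CPM, so that RP3 again lay among the Ucp1-high tumours. Cebpa, which maintains the adipocyte state with Pparg, measured 44.9, 42.6, 62.01 and 24.3 CPM against 8.84, 20.7 and 18.6 CPM. Ppara, the receptor that drives fatty acid oxidation, measured 3.29, 3.51, 9.54 and 2.52 CPM against 1.47, 0.727 and 0.651 CPM. Cebpb, which acts early in adipogenesis and in acute-phase responses, measured 105, 100.2, 144 and 123 CPM against 65.1, 67.2 and 49.9 CPM, and Klf15, a late adipogenic factor, 18.6, 14.6, 33.4 and 17.9 CPM against 9.82, 8.72 and 6.73 CPM. Cebpa, Cebpb, Ppara and Klf15 stood apart and Pparg did not. Srebf1, the activator of lipogenic genes, measured 221, 185, 199.9 and 249 CPM against 359.6, 218 and 216 CPM and was highest in RP1, the tumour with the most Acly. Esrrg, an orphan receptor of oxidative tissues, was the lowest member of the list, with a log2 fold change of -0.98 (SE 0.50), and its highest value was in RP3.

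In the adrenergic list the beta-3 receptor was the member furthest apart. Adrb3 measured 4.86, 2.65, 3.56 and 3.03 CPM against 0.0701, 0.311 and 0.467 CPM, a log2 fold change of 3.46 (SE 0.55). Its RP1 and RP3 values lay at or below the floor of 3 counts. Adora2a, an adenosine receptor, was the only fat list member with every Ucp1-high tumour below every Ucp1-low one, at 1.57, 1.56, 0.404 and 0.947 CPM against 1.68, 2.08 and 2.203 CPM. The natriuretic peptide receptors Npr1 and Npr3, which signal to lipolysis and clear the peptide, were both apart upward, with log2 fold changes of 1.03 (SE 0.27) and 1.84 (SE 0.61). Adra1a, an alpha-1 receptor, measured 2.04, 2.77, 3.72 and 2.46 CPM against 1.75, 0.415 and 1.03 CPM, and Prkar2b, a regulatory subunit of protein kinase A abundant in fat, 73.3, 63.3, 84.2 and 76.002 CPM against 54.6, 39.4 and 62.3 CPM. Adcy3, an adenylyl cyclase, and Pde3b, the phosphodiesterase through which insulin restrains lipolysis, overlapped with log2 fold changes of -0.68 (SE 0.29) and -0.15 (SE 0.22). The list had 5 of 11 members apart upward, 1 downward and a median of 0.51.

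Across all 15024 genes, edgeR's quasi-likelihood test with Benjamini-Hochberg adjustment called 28 genes higher in the Ucp1-high tumours (0.186%) and 0 lower. Before adjustment, 1623 genes were higher at p under 0.05 (10.8%) and 1547 lower (10.3%), and DESeq2 called 625 genes higher and 495 lower, limma voom 781 and 644. Scaled by library size alone, 35 genes were called higher and 63 lower. Of the 28, 10 are members of the fat lists, which the division favours, and Ucp1 itself is not among the 28. The number depended on which tumours were used. The fits without RP1, RP2 or RP4 called 0 genes higher, and the fit without RP3 called 1, which is none of the 28. The fit without RP6 called 3, all among the 28. Leaving out RP5, the Ucp1-low tumour with the most Ucp1, gave 1507 upward and 1320 downward of 15170 genes fitted. List members called below by DESeq2, limma voom or edgeR without RP5 are to be read beside these totals. Placing RP7 with the Ucp1-low tumours gave 0 in both directions.

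The 18 called genes outside the fat lists include detoxifying enzymes, acute-phase and epithelial genes. Their p-values describe an association with the Ucp1 division of these 7 tumours. Cdo1, Cyp2e1, Hp and S100b are also found in fat, so the division may favour them as it does the fat lists. Cdo1, the cysteine dioxygenase that starts taurine synthesis and is abundant in liver and fat, had the smallest p of all genes and is named for that, outside the naming rule. It measured 193, 167, 217 and 194 CPM against 66.01, 62.5 and 66.04 CPM, a log2 fold change of 1.57 (SE 0.13) with an adjusted p of 0.0241 by edgeR's quasi-likelihood test. The 3 Ucp1-low values lay within a few CPM of each other. Cyp2e1, a cytochrome P450 of liver and fat, measured 128, 118, 292 and 90.3 CPM against 11.9, 10.7 and 8.78 CPM (edgeR adjusted p 0.0412). Hp, the haemoglobin-binding protein haptoglobin that liver and fat secrete, measured 267, 193, 258 and 96.5 CPM against 18.7, 23.9 and 31.4 CPM (edgeR adjusted p 0.0412). For both, as for most fat genes, RP7 was the lowest of the Ucp1-high tumours.

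Cyp2b10, a xenobiotic cytochrome P450, had the largest fitted log2 fold change, which at such counts depends on the fit's prior and is no bound. It had 3 counts in all in the Ucp1-low tumours against 594 in the Ucp1-high ones. The ratio of pooled CPM was 284, with an exact 95% interval from 96.9 to 1383 for counting error only, and edgeR's quasi-likelihood test gave an adjusted p of 0.0412. Ccdc153, a coiled-coil protein, measured 1.57, 1.61, 1.698 and 3.03 CPM against 0.1403, 0.104 and 0.2003 CPM (edgeR adjusted p 0.0412), and RP7 had the most. Its Ucp1-low counts were 2, 1 and 12, below the floor of 3 counts in RP1 and RP3. The following called genes lie outside the naming rule and are named to complete the 18. Prdx6, a peroxiredoxin, measured 184, 214, 243 and 222 CPM against 91.8, 98.1 and 102 CPM, and Ephx2, the soluble epoxide hydrolase, 23.7, 26.2, 37.1 and 20.1 CPM against 6.31, 4.78 and 7.58 CPM. Sult1a1, a phenol sulfotransferase, differed by a log2 fold change of 2.03 (SE 0.23), Selenbp1, a selenium-binding protein, by 1.61 (SE 0.20), and Clic3, a chloride channel family member, by 1.70 (SE 0.21). Iqca and 1190002H23Rik complete the set, and Iqca had 1 count in all in the Ucp1-low tumours against 49. In all 5 Rb1/Trp53/Crebbp tumours, 16 of the 18 genes lay below the lowest Ucp1-high tumour. The exceptions were Napsa, whose level in RPC4 was 60.5 CPM against 57.9 CPM in RP7, and Iqca, at 1.24 CPM in RPC4. The 18 were picked for high values in the Ucp1-high tumours, and the share among all genes was not counted. Nothing is therefore read from the 16.

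**Figure D3:**
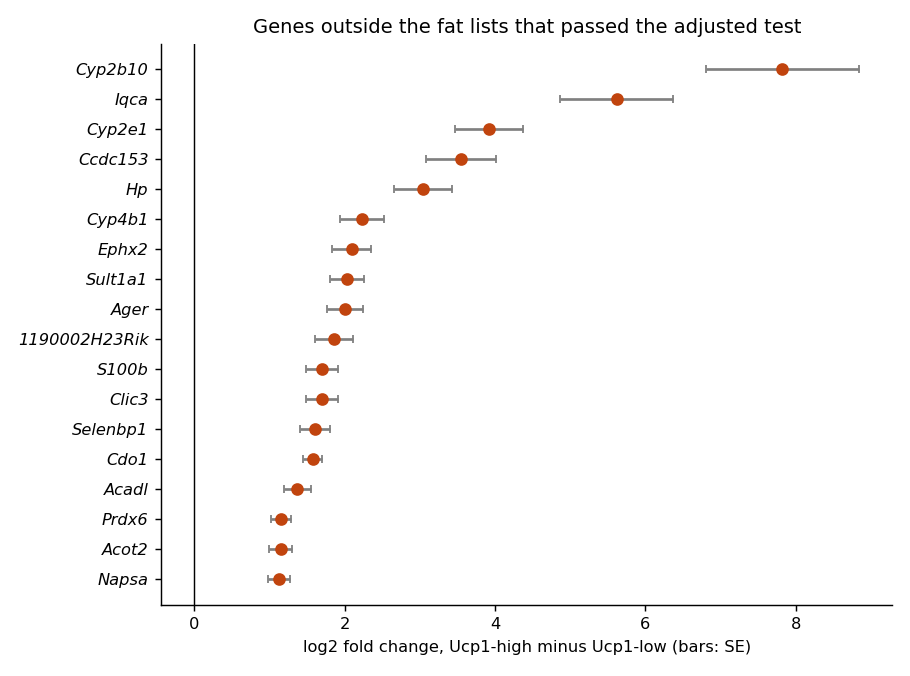
Fitted log2 fold changes (Ucp1-high minus Ucp1-low, 4 against 3 tumours) of the 18 genes outside the fat lists with an adjusted p under 0.05, with standard errors as bars. All lie above 0, from 1.12 for Napsa to 7.82 for Cyp2b10, whose Ucp1-low tumours held 3 counts in all.

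The enzymes of mitochondrial fatty acid oxidation were higher in nearly all cases. Of 24 members, 18 stood apart upward, beside 10.4% of all genes, and the median log2 fold change was 0.92. Brown adipocytes burn fatty acids, so dividing by Ucp1 may favour this list and that of the respiratory chain below. Nothing is read from either excess, and the p-values describe an association with the division. EdgeR called 2 of the 24, beside 0.186% of all genes. DESeq2 called 16 higher, limma voom 15 and edgeR without RP5 16, beside 625, 781 and 1507 of all genes. Acadl, the long-chain acyl-CoA dehydrogenase, measured 123, 129.7, 169 and 106 CPM against 48.96, 55.4 and 48.8 CPM, a log2 fold change of 1.37 (SE 0.18) with an edgeR adjusted p of 0.0412. Acot2, a mitochondrial acyl-CoA thioesterase, measured 22.01, 20.8, 21.6 and 21.02 CPM against 9.19, 8.202 and 11.4 CPM (edgeR adjusted p 0.0487). The Acot2 call is marginal and was kept in 6 of 21 alternatives, and the Acadl call in 11. The 4 Ucp1-high values of Acot2 were nearly equal, including that of RP7. The following members were chosen after their values were seen. Acadm, the medium-chain dehydrogenase, measured 151, 162, 223 and 141 CPM against 69.7, 59.5 and 79.3 CPM, and Acaa2, the thiolase of the last step, 140.4, 165, 199 and 144 CPM against 48.3, 64.997 and 83.6 CPM. Both stood apart. Cpt1a, the liver and general form of the carnitine acyltransferase, overlapped at 62.4, 79.2, 96.5 and 83.4 CPM against 66.7, 147 and 44.7 CPM, with RP3 the highest of the 7.

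Genes of the citrate cycle and respiratory chain were higher by less and with no call by edgeR. DESeq2 called 15 of the 40 higher, limma voom 26, and edgeR without RP5 29, beside 625, 781 and 1507 of all genes. Of 40 members, 24 stood apart upward and 39 were above 0, beside 10.4% and 47.5% of all genes, and the median log2 fold change was 0.59. Atp5b, the beta subunit of ATP synthase and the most abundant member, measured 739, 759, 931 and 737 CPM against 594, 643 and 782 CPM and overlapped. RP5 lay nearest to the Ucp1-high tumours for this list, with a summed level of 7258 CPM against 5126 and 5223 CPM in RP1 and RP3 and 7536 to 9401 CPM in the Ucp1-high tumours. Most of these transcripts are short, 29 of 40 falling in the shortest tertile of genes, and short genes were higher overall. With each library's length trend removed, a setting chosen after seeing the data, the median was 0.29, and that of the oxidation list 0.74. Ribosomal protein genes, a list added after seeing the data, had a median of 0.65 with all 45 above 0. Of the 45, 43 are in the shortest tertile. In that list 15 stood apart upward, beside 10.4% of all genes. None was called by edgeR, 5 by DESeq2, 42 by limma voom and 43 by edgeR without RP5, beside the same totals of all genes. The median became 0.22 without the length trend.

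The share of counts in long genes, the share of Calca and the share of reads aligned to several places did not overlap between the groups. Genes in the shortest tertile had a median log2 fold change of 0.23, with 72.2% above 0, those in the middle tertile -0.039 and those in the longest tertile -0.23, with 25.2% above 0. The longest tertile took 30.6% to 31.6% of the counts in the Ucp1-high tumours, 33.2% to 39.3% in the Ucp1-low ones and 34.95% to 37.7% in the Rb1/Trp53/Crebbp tumours, Calca left out. Calca held 16.5% to 18.97% of the gene counts in the Ucp1-high tumours and 8.396% to 13.9% in the Ucp1-low ones. Reads aligned to more than one place were 15.9% to 18.5% against 10.9% to 14.1%. The exact two-sided permutation p was 0.0571 for each, the smallest that 35 divisions of 7 tumours allow. For the Calca and alignment shares it was 0.16 after adjustment over the 28 single values tested, of which 10 stood at that smallest p. The part of these measures in the differences above was not tested beyond the length setting, under which 8 of the 28 calls remained: Cidec, Pck1, Otop1, Aqp7 and Plin1 of the fat lists, and Cdo1, Ager and Prdx6. Of the lost calls outside the fat lists, Cyp2e1 was at a log2 fold change of 3.72 beside 3.92 (edgeR adjusted p 0.0566). Ephx2 was at 2.02 beside 2.09 (edgeR adjusted p 0.0566). Others moved more, Clic3 to 1.20 from 1.70 and Napsa to 0.86 from 1.12 (edgeR adjusted p 0.0886 for both). The highest p was that of 1190002H23Rik, at 1.34 beside 1.86 (edgeR adjusted p 0.163).

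**Figure D4:**
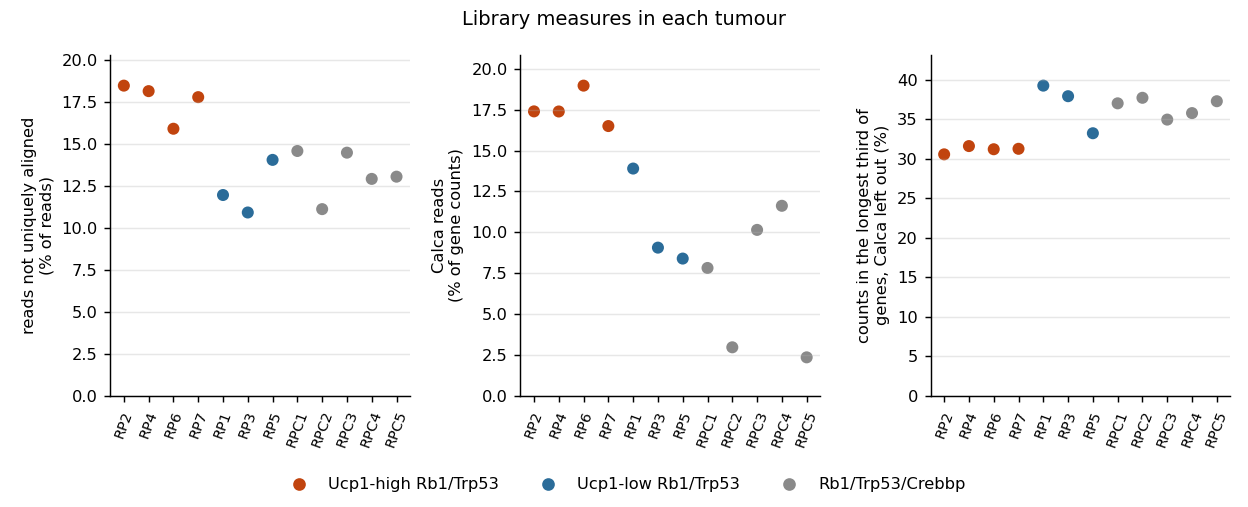
Reads not uniquely aligned (percent of reads), Calca reads (percent of gene counts) and counts in the longest tertile of genes with Calca left out (percent), 1 point per tumour, for the 3 sets of tumours. On all 3 measures the 4 Ucp1-high tumours do not overlap with the other 8, at 15.9% to 18.5%, 16.5% to 18.97% and 30.6% to 31.6%.

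Markers of other neck tissues varied among the tumours beside fat, most of all those of striated muscle. Of 30 muscle genes, 24 could be fitted, all were above 0 with a median log2 fold change of 2.76, and none stood apart or was called. Their summed level was 174, 294, 7233 and 279 CPM in the Ucp1-high tumours and 948, 99.8 and 159 CPM in the Ucp1-low ones. Only RP6 was far out, and without RP6 the median was -0.22. Without RP1 and RP6 together, a setting chosen after seeing the data, it was 2.45 with 21 of 24 genes above 0. Atp2a1, the calcium pump of fast muscle, measured 10.2, 34.6, 817 and 14.1 CPM against 160.1, 0.623 and 3.86 CPM, and RP1 came second.

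Thyroid follicular genes were somewhat higher beside Ucp1. Of 14 members fitted, 5 stood apart upward and 1 downward, beside 10.4% and 8.25% of all genes. None was called by edgeR with all 7 tumours, and the median log2 fold change was 0.74. DESeq2 called 4 higher and 1 lower, as did edgeR without RP5, and limma voom called 2 higher. Of all genes, DESeq2 called 625 higher and 495 lower, edgeR without RP5 1507 and 1320, and limma voom 781 higher. Tg, thyroglobulin, measured 6724, 8459, 7919 and 8411 CPM against 8978, 1478 and 5909 CPM and overlapped, with RP3 far below the rest. Pax8, a transcription factor of the follicular cell and chosen after its values were seen, measured 70.1, 69.5, 82.7 and 53.8 CPM against 35.3, 31.3 and 41.3 CPM. When the score of the follicular markers entered the model as a covariate, no gene was called in either direction. The score itself did not overlap between the groups, at 0.075 to 0.78 against -1.19 to 0.033. In these 7 tumours its part thus cannot be told apart from that of the division. The log2 fold changes of the called genes had wider standard errors, and their size moved both ways. Acadl was at 1.41 (SE 0.29) and Cyp2e1 at 3.95 (SE 0.77), close to the values without the covariate. Cyp4b1 rose to 2.86 from 2.23, whereas Napsa fell to 0.79 from 1.12, Ephx2 to 1.64 from 2.09 and Clic3 to 1.35 from 1.70. The lipid droplet and oxidation medians were 1.88 and 0.87. The respiratory chain median was 0.31 beside 0.59, and the ribosomal median 0.26 beside 0.65. The loss of calls thus came with wider standard errors and, for some genes and lists, with smaller differences. The C cell and neuroendocrine list went the other way on balance, with 10 of 28 members above 0 and a median of -0.16, although Calca itself stood apart upward at 193501, 189684, 214762 and 186346 CPM against 143113, 85773 and 80357 CPM (log2 fold change 0.93 (SE 0.33), edgeR adjusted p 0.184).

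Airway and alveolar markers were also higher on balance. Of 14 airway genes fitted, 13 were above 0 and 5 stood apart upward, beside 47.5% and 10.4% of all genes. None was called by edgeR with all 7 tumours, and the median was 2.06. DESeq2 called 5 airway genes higher, limma voom 0 and edgeR without RP5 3, beside 625, 781 and 1507 of all genes. Bpifa1, a secreted protein of the upper airway, measured 121, 391, 719.96 and 1518 CPM against 22.4, 15.5 and 43.8 CPM (edgeR adjusted p 0.0928), and RP7 had the most. The summed airway level ran 301, 692, 1308 and 2522 CPM against 96.3, 116 and 127 CPM, so that its order among the Ucp1-high tumours was not that of the fat genes. RPC5 had more still, at 2816 CPM, with little Ucp1. Other members made up that sum, since Bpifa1 in RPC5 was 10.1 CPM, below every Ucp1-low tumour. Without RP6 the median was 1.09. Of the alveolar lung list, added after seeing the data and fitted for 12 of 13 genes, 3 were called, beside 0.186% of all genes. Since the list was made with the data known, nothing is read from that number. Its median was 0.61, and 0.24 with the length trend removed. Ager, the receptor for glycation end products known from flat alveolar cells, measured 393, 494, 587 and 433 CPM against 102, 95.1 and 160.4 CPM (edgeR adjusted p 0.0412). Cyp4b1, a cytochrome P450 of lung, measured 34.7, 34.3, 45.2 and 64.2 CPM against 8.28, 12.5 and 7.996 CPM (edgeR adjusted p 0.0412). Napsa, an aspartic protease of surfactant-making cells, measured 63.4, 78.3, 70.4 and 57.9 CPM against 31.8, 26.6 and 34.4 CPM (edgeR adjusted p 0.0412). Sftpc, a surfactant protein chosen after its values were seen, measured 90.96, 90.96, 86.8 and 23.1 CPM against 40.3, 40.8 and 44.5 CPM and overlapped only through RP7. Lamp3, another alveolar gene chosen in the same way, was at or near 0 throughout. S100b, a calcium-binding protein of Schwann cells and fat cells, was the 1 called gene of 7 fitted on the nerve list, beside 0.186% of all genes. It measured 30.8, 24.1, 38.97 and 24.7 CPM against 10.3, 7.68 and 9.38 CPM (edgeR adjusted p 0.0412). The call was kept in 1 of 7 fits without 1 tumour and lost with the length trend removed (edgeR adjusted p 0.0869). Of the 7 nerve genes, 5 were above 0 and 2 stood apart upward, with a median of 0.45. What part follicular, airway, alveolar or nerve cells have in the called genes was not tested. The follicular covariate cannot show it, since that score did not overlap between the groups.

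**Figure D5:**
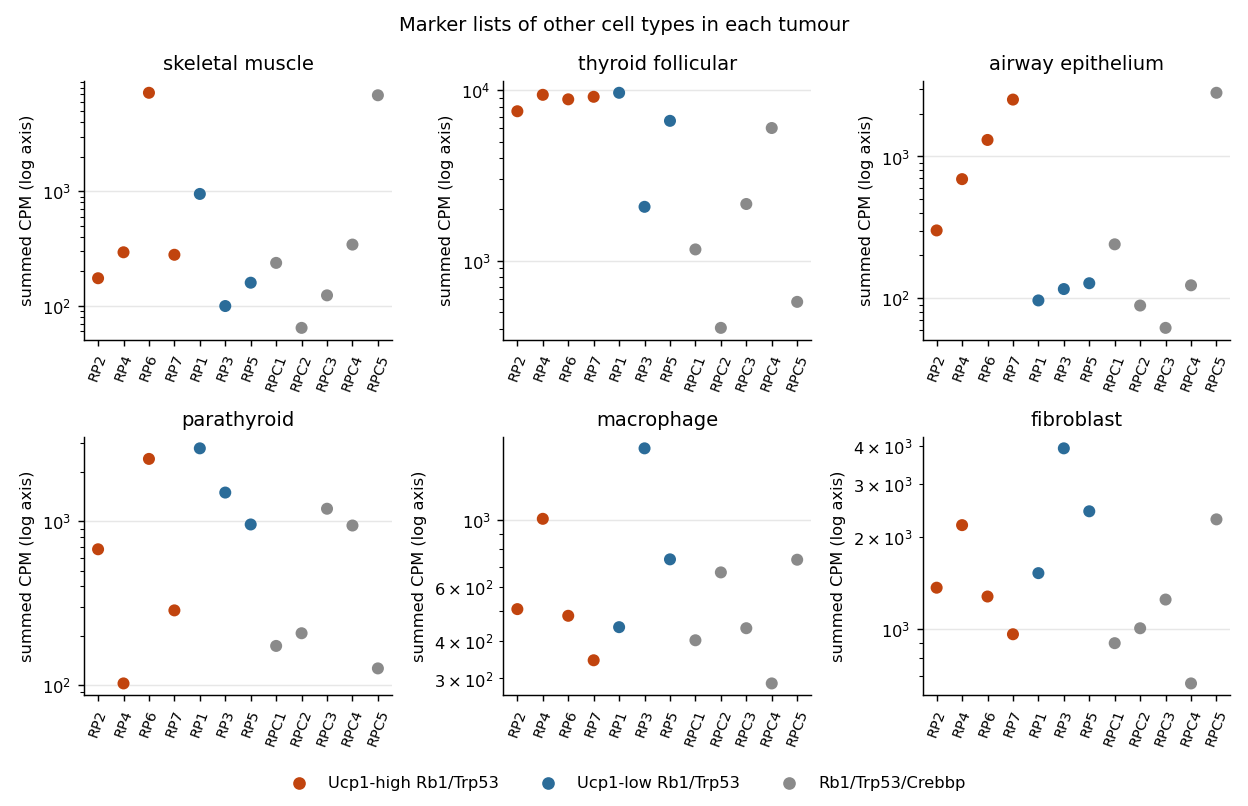
Summed CPM (log axes) of the marker lists for skeletal muscle, thyroid follicular cells, airway epithelium, parathyroid, macrophages and fibroblasts, 1 point per tumour, for the 3 sets of tumours. RP6 and RPC5 stand out for muscle (7233 and 6882 CPM), and RP3 for macrophages (1724 CPM).

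Connective tissue, immune and parathyroid markers were lower on balance, with no call by edgeR with all 7 tumours. DESeq2 called 3 fibroblast genes, 1 macrophage gene and 1 parathyroid gene lower, and limma voom 1 parathyroid gene lower. Without RP5, edgeR called 1 parathyroid gene lower and 1 fibroblast gene in each direction. Of all genes, DESeq2 called 495 lower, limma voom 644 lower, and edgeR without RP5 1507 higher and 1320 lower. All 15 macrophage genes were below 0 with a median of -0.83, and 11 of 15 fibroblast genes with a median of -0.40. With limma voom the fibroblast median was 0.18. RP3 had the highest summed CPM of both lists, and its macrophage sum was 1724 CPM beside 443 and 742 CPM in RP1 and RP5 and 345 to 1009 CPM in the Ucp1-high tumours. Without RP3 the macrophage median was -0.16, with 6 of 15 genes above 0. The fibroblast median was -0.34 without RP3 and -0.10 without RP5. Lyz2, the lysozyme of macrophages, overlapped at 148, 404, 235 and 143 CPM against 169, 591 and 265 CPM, and Col3a1, a fibrillar collagen, at 231, 516, 229 and 130.4 CPM against 321, 1181 and 659 CPM. Fn1, fibronectin, chosen after its values were seen, measured 24.99, 90.5, 53.8 and 11.6 CPM against 462, 1038 and 174 CPM and did not overlap, with an edgeR adjusted p of 0.116. The 3 parathyroid genes were all below 0. Pth, parathyroid hormone, overlapped widely at 609, 0.173, 2320.05 and 194 CPM against 2495, 1348 and 806 CPM, and RP4 had almost none. The smooth muscle, lymphocyte, thymocyte, cartilage and erythroid lists had medians of -0.25, -0.34, -0.80, 0.55 and -0.028 over 12, 6, 4, 8 and 2 genes fitted. EdgeR called none of them with all 7 tumours. DESeq2 and edgeR without RP5 each called 2 cartilage genes higher, and limma voom 1, beside 625, 1507 and 781 of all genes. Leaving out 1 tumour turned the sign of the smooth muscle (0.047 without RP3), lymphocyte (0.31 without RP5) and erythroid medians (0.19, 0.23 and 0.32 without RP2, RP5 or RP7).

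No cell cycle gene was called by edgeR with all 7 tumours. DESeq2 and limma voom each called 1 lower, beside 495 and 644 of all genes. Of 30 members 5 were above 0, and the median was -0.17. Pcna, the replication clamp, measured 371, 289, 285 and 401 CPM against 231, 165 and 461 CPM. The proliferation list was highest in RP5, with a summed level of 2778 CPM against 1321 to 1963 CPM in the other 6. Without RP5 the median turned to 0.14, with 20 of 30 genes above 0, 2 called higher and 1 lower. That fit called 1507 higher and 1320 lower of all 15170 genes, so nothing is read from these calls. The hypoxia list had a median of 0.15, which was -0.043 when scaled by library size alone. Of its 18 members, 4 stood apart upward, beside 10.4% of all genes. DESeq2 and limma voom each called 2 hypoxia genes higher, beside 625 and 781 of all genes. EdgeR without RP5 called 2 higher and 1 lower, beside the same 1507 and 1320 of all genes. The immediate early list had a median of -0.35 and the endothelial list -0.03. With all 7 tumours, edgeR called no gene of these lists. With limma voom the immediate early median was 0.097 and the endothelial median 0.083. Without RP3 they were 0.24, with 13 of 18 genes above 0, and 0.25, with 15 of 18 above 0. Aldoa, an aldolase of glycolysis, measured 1039, 840.4, 1376 and 902 CPM against 644, 926 and 609 CPM, Jund, a subunit of the AP-1 factor, 393, 392, 399 and 429 CPM against 331, 309 and 379 CPM, and Eng, endoglin of endothelium, 29.7, 40.9, 25.4 and 22.2 CPM against 26.4, 56.3 and 27.4 CPM.

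The engineered genes overlapped between the groups. Rb1 measured 78.2, 72.2, 69.9 and 70.95 CPM against 83.1, 48.9 and 99.7 CPM and Trp53 31.3, 35.7, 27.97 and 24.4 CPM against 23.1, 25.9 and 32.95 CPM. The labels do not say which part of either gene is deleted, so these whole-gene counts check nothing. Crebbp measured 40.8, 43.1, 49.3 and 49.1 CPM against 98.7, 54.6 and 45.5 CPM and was highest in RP1. Xist, the RNA of the inactive X, measured 1840.5, 1819.8, 2.51 and 1795 CPM against 5.82, 3175 and 2547 CPM. RP1 had reads of Y-linked genes and RP6 had neither these nor much Xist, so 1 tumour of each group lacked it.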

How the data were processed

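RNA from the 12 tumours was selected with oligo(dT) and made into NEBNext Ultra libraries, per the labels' protocols. Each deposited file gives read counts per gene, made by the authors with bcl2fastq 1.8.2, TopHat2 2.0.12 and HTSeq 0.6.1 on mm9 per the submitters' processing notes. Annotation and strand setting: not given in the sources used here. Overlapping and antisense genes may therefore share reads.

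From the counts of 23284 genes, with the 5 summary rows of HTSeq left out, the 7 Rb1/Trp53 tumours were divided at 20 CPM of Ucp1. Genes were fitted with edgeR 4.0.16 in R 4.3.3 (TMM factors, filterByExpr with a minimum count of 10, robust quasi-likelihood test, Benjamini-Hochberg adjustment over 15024 genes). A called gene has an adjusted p under 0.05. The standard error is the log2 fold change divided by the root of the F statistic. Printed CPM carry TMM factors over all 12 libraries. Genes that stand apart have CPM ranges of the groups that do not overlap. DESeq2 1.42.0, limma 3.58.1 (voom with sample weights), other scalings, filters, limits and covariates, and fits without each tumour were alternatives. The script was tested on simulated data. Transcript lengths came from GENCODE M21, matched for 98.9% of genes, since no mm9 annotation was used here.

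Members and lists were chosen with earlier results of these data known. Genes were named by rule: fat list members with a mean of 1 CPM or more in the Ucp1-high tumours, up to 4 called members of each other list or else its most abundant member, the 12 called genes with the largest change and a mean of at least 1 CPM, and Rb1, Trp53 and Crebbp. Others are said to be chosen after their values were seen.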

Additional observations from a re-analysis of the deposited data

Results flagged for a closer look

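Sets of values were taken over the 7 Rb1/Trp53 tumours and over the 4 Ucp1-high ones among them. Of 312 sets, 40 had 1 tumour far from the rest, measured by its gap to the nearest value over the whole range. The limit flags about 1 in 20 sets of independent, normally distributed values. CPM are skewed, the genes share tumours and the 4 lie within the 7, so the number due to chance is not known. In most of the 40, RP6 was the highest tumour. Muscle genes were among these, with Atp2a1 at 817 CPM, Des at 195 CPM and a summed muscle level of 7233 CPM.

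Oxidative and fat genes were far out in RP6 as well. Atp5b reached 931, Ppargc1a 15.8, Cpt1b 2.34, Ucp3 14.3, Bmp8b 2.59 and Ppara 9.54 CPM. Plin4, a perilipin, reached 52.2 CPM, and Slc2a4, the insulin-responsive glucose transporter, 45.2 CPM. Of the synthesis genes, Fasn stood at 788, Scd1 at 1885, Acacb at 61.3 and Me1, malic enzyme, at 161 CPM. Cyp2e1 stood at 292 CPM. The summed level of the uptake and synthesis list was 7418 CPM, that of the transcription factors 866 CPM and that of the adrenergic list 665 CPM. Xist was the 1 gene with RP6 lowest, at 2.51 CPM, and it alone made up the sex-linked sum there.

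RP7 had the lowest Ucp1 of the Ucp1-high tumours, 54.7 CPM, and the most Ccdc153, 3.03 CPM, and Ntrk3, a neurotrophin receptor, 9.22 CPM. RP3 had the least Tg, 1478 CPM, the lowest follicular sum, 2071 CPM, and the lowest cartilage sum, 113 CPM. It had the most Esrrg, 8.51 CPM, and the highest immediate early sum, 2712 CPM. RP1 had the most Crebbp, 98.7 CPM, Foxn1, a thymic epithelial factor, 13.5 CPM, and Srebf1, a regulator of lipid synthesis, 359.6 CPM.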

How the results depend on the processing

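The number of called genes moved with the test and with the tumours used. The main values were 28 higher and 0 lower. DESeq2 gave 625 and 495, limma voom 781 and 644, and log2 Ucp1 in place of the division 1023 and 810. Library size alone, which put the median of all genes at -0.22 beside -0.024, gave 35 and 63. No filter on low counts gave 32 and 1, and thinning the deepest library 27 and 1. A Ucp1 limit of 50 CPM, which moves RP7, gave 0 higher, as did the follicular score as a covariate. With that covariate Acadl was at 1.41 beside 1.37 and the lipid droplet median at 1.88 beside 1.52. Napsa was at 0.79 beside 1.12 and the respiratory chain median at 0.31 beside 0.59. A limit of 10 CPM divides the tumours in the same way. Leaving out single tumours gave 0 to 1507 higher and 0 to 1320 lower. Chosen after seeing the data, leaving out RP6 and RP7 gave 4 higher, leaving out RP1 and RP6 gave 0, and removing the length trend gave 8. All 28 genes were among those called by DESeq2 and in the fit without RP5, and 17 of them in the fit without RP7. The cause of these differences was not tested.

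Of the named genes outside fat, these log2 fold changes turned sign, none of them called. With the follicular covariate they were -2.49 for Atp2a1, -0.45 for Tg, -0.26 for Pcna, 0.15 for Eng, -0.52 for Slc4a1 and -0.17 for Trp53. Without RP3 they were -0.044 for Pcna, 0.13 for Eng, 0.097 for Lyz2 and 0.095 for Xist. Without RP6, Atp2a1 was at -1.47 and Des at -0.19, and without RP6 and RP7 at -1.28 and -0.035. With the length trend removed they were 0.022 for Col11a1, 0.019 for Rb1 and -0.051 for Trp53. Rb1 was at 0.14 without RP5, Trp53 at -0.071 with library size alone, Xist at 1.93 with limma voom and Cd79a at -0.19 with the limit of 50 CPM. Over the fits without 1 tumour, the values ran from -1.47 to 6.39 for Atp2a1, -0.044 to 0.76 for Pcna, -0.50 to 0.13 for Eng, -0.19 to 2.85 for Des, -0.96 to 0.097 for Lyz2, -1.07 to 0.095 for Xist and -0.33 to 0.14 for Rb1. Of the other values of named genes, 2348 kept their direction and side of the threshold or moved by less than the spread, 79 moved by more, 77 lost the call and 6 gained it.

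No paired analysis was possible because the Ucp1-high and Ucp1-low tumours share no replicate number. With 4 against 3 tumours, depth from 9.11 to 57.3 M counts and groups made by a measured gene, the calls describe these tumours. Genes near 3 counts cannot be ranked.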

Other observations

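In the Rb1/Trp53/Crebbp tumours, which the division did not use, 44 of the 100 fat genes fitted were below the lowest Ucp1-high tumour in all 5. The share among all genes was not counted, so nothing is read from the 44. Adipoq measured 1.71 and 11.3 CPM at its lowest and highest among the 5, Plin1 0.552 and 1.96 CPM and Cidea 5.66 and 15.9 CPM. RPC2 and RPC3 had the most Ucp1 of the 5, at 6.07 and 5.71 CPM. Pdk4, a kinase that turns mitochondria from glucose to fatty acids and chosen after its values were seen, reached 62.1 CPM in RPC5, against 36.3, 68.8, 258 and 37.5 CPM in the Ucp1-high and 7.79, 29.9 and 8.06 CPM in the Ucp1-low Rb1/Trp53 tumours.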
